A study of Mus musculus with 16 samples.

Results

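Fibroblast growth factors (FGFs) are secreted ligands that bind receptor tyrosine kinases (FGFR) together with heparan sulfate, and the receptors pass the signal through the adaptor FRS2 and GRB2 to the RAS-ERK kinase cascade. ERK signalling induces its own inhibitors, among them the Sprouty proteins, so Sprouty transcripts are commonly read as feedback of the pathway. In the mouse uterus, FGFs made by the stroma act on FGFR2 of the epithelium and promote epithelial proliferation, and progesterone restrains this stromal supply.

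The 8 genes described here are Fgf1, the receptor genes Fgfr1, Fgfr2 and Fgfr3, the FGF carrier gene Fgfbp1, and the Sprouty genes Spry1, Spry2 and Spry4, out of 23306 genes in the table. They were matched by Ensembl identifier, all 8 were found, and all 8 passed the filter on low values (at least 10 in at least 4 libraries). The set was selected on measured values, the lower level of Fgf1 in knockout than in control libraries under vehicle. The genotype comparison under vehicle is therefore given as a description without a test for all 8 genes, and the hormone responses of Fgf1, which share those libraries, likewise.

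RNA-seq was done on 16 libraries of mouse endometrial epithelial organoids, epithelial structures of the uterine lining grown in culture. Each of the 4 groups had 4 libraries. M13 to M16 were Tgfbr2 conditional knockout (cKO) organoids given E2/MPA, M9 to M12 were controls given E2/MPA, M5 to M8 were cKO organoids given vehicle, and M1 to M4 were controls given vehicle. The labels give the genotypes as Tgfbr2 PRcre+ for cKO and Tgfbr2 FF for control, so the Cre recombinase, driven from the progesterone receptor gene, was named for the cKO mice alone, and an effect of Cre and one of the deletion cannot be told apart. All organoids were cultured for 2 days and then treated for 6 days. Hormone-treated organoids were first given estradiol (E2, 10 nM) for 2 days, and for the last 4 days E2 at 10 nM plus the synthetic progestin medroxyprogesterone acetate (MPA) at 1 µM. The labels give no strain, age or number of animals. The spread behind each p-value is that between these libraries, and it may be technical.

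Levels are normalized read counts, in which each library was divided by its own size factor, from 14372111 to 20016836 reads per library. Means are given ± SD with n = 4 per group, and fold changes come from limma on log2(value + 1), a scale that understates changes of low genes. Adjusted p-values are from this limma fit over 16509 genes with Benjamini-Hochberg adjustment, two-sided, with a threshold of 0.05. Tgfbr2 itself was read in every group (4326 ± 850 in cKO and 5356 ± 1685 in control under E2/MPA, 4325 ± 811 in cKO and 6014 ± 1467 in control under vehicle), a total over the gene that does not check the deletion. The 8 epithelial markers summed to 96002 to 151220 in every library. The 10 stroma markers, from Col1a1 to Thy1, summed to 831 to 53595. The highest library of each group was M16 (39302, against 2312 to 4325 in M13 to M15), M12 (45535, against 1599 to 20703 in M9 to M11), M8 (21980, against 1638 to 1724 in M5 to M7) and M4 (53595, against 831 to 12020 in M1 to M3). These 4 are called stroma-rich, by rank within the group. M9 (20703) was close to M8 and far above M10 and M11 (1599 and 2094), and M1 (12020) far above M2 and M3 (1874 and 831). Values without the stroma-rich libraries therefore keep M1 and M9 in control, while the cKO libraries kept summed to at most 4325. Only Lum (M5 and M7) and Thy1 (M11) of the 10 stroma markers were at 0 in any library. In bulk samples, fewer cells of a type and less RNA per cell cannot be told apart. The sum of the 5 leukocyte markers in the table was highest in M12 (18607) and M4 (14347) and lay between 1912 and 4673 elsewhere. Most of it in M12 and M4 was Lyz2 (15703 and 12161). Ptprc, Adgre1 and Csf1r were also the highest of their groups there, but Cd68 was the lowest (1591 and 1178). M8 and M16 were thus high in stroma markers but not in this sum. The sum of the 5 smooth muscle markers was highest of its group in M16 (1227), M12 (2285), M8 (782) and M4 (2098). So was the sum of the 4 endothelial markers in the table (26.3 to 545 over all libraries). It was 163 in M16, 233 in M12, 164 in M8 and 545 in M4. Most of it there was Kdr (133 in M16, 188 in M12, 136 in M8 and 471 in M4). Cdh5 was the lowest of its group in M16 (24.7) and M8 (20.1) and the highest in M4 (68.8), and Tek was at 0 in M12. The epithelial sum was also highest of its group in these libraries (140306 in M16, 124418 in M12, 136423 in M8 and 151220 in M4). The part of these cell types in the results below was not tested, apart from the values given without the stroma-rich libraries or with the stroma marker mean as a covariate.

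Promoter sequence is shown for the Sprouty paralogs that moved in opposite directions under hormone, Spry1 and Spry2, and for Fgfbp1, the member whose libraries separated the genotypes. Each is the 250 bases before the transcription start, 5′ to 3′ on the gene's strand, from the RefSeq promoter table of build GRCm38.p6, which holds 5 of the 8 genes. Spry1 is at chr3:37639697-37639946 on the plus strand, Spry2 at chr14:105896820-105897069 on the minus strand and Fgfbp1 at chr5:43981800-43982049 on the minus strand. Capitals mark matches to the searched motifs.
Spry1: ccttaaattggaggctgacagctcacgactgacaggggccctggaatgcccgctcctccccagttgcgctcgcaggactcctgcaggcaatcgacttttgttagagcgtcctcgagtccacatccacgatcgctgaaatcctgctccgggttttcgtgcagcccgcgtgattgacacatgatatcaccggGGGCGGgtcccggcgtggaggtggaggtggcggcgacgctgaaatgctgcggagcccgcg
Spry2: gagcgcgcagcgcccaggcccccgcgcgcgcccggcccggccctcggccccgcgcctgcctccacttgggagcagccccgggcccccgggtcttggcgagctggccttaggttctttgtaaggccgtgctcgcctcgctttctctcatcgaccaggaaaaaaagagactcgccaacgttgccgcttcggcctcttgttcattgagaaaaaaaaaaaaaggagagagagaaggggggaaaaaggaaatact
Fgfbp1: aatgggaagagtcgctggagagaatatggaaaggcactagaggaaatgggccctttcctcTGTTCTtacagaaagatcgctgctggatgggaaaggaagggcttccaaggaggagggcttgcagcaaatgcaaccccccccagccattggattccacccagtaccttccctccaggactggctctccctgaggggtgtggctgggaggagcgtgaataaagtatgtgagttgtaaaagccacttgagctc
The motifs were searched on both strands. They were the progesterone and glucocorticoid receptor half-site AGAACA (present in 16.1% of 32817 promoters of this length), the palindromic estrogen response element (0.064%), the ETS core CCGGAA (12%), the AP-1 site TGANTCA (6.75%), the SMAD palindrome GTCTAGAC (0.168%) and the GC box GGGCGG (32.7%). Fgfbp1 held 1 AGAACA match, written TGTTCT on the gene's strand, Spry1 held 1 GC box, and Spry2 held none of the 6 motifs in this window. These are matches of letters and not shown binding sites.

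Fgf1 (ENSMUSG00000036585) encodes acidic FGF, a ligand that can activate every FGF receptor. Its level was lower in cKO than in control organoids under both treatments and lower under E2/MPA than under vehicle in both genotypes. Under vehicle, where it was chosen, it was at 94.2, 70.6, 152 and 835 in the cKO libraries M5 to M8, against 376, 265, 335 and 1584 in the control libraries M1 to M4. The highest value of each group was that of its stroma-rich library, and M8 alone made the groups overlap. The other cKO libraries (70.6 to 152) lay below all control libraries, and the ratio of the cKO to the control mean was 0.325 without the stroma-rich libraries, 0.45 over all libraries and 0.527 between the stroma-rich M8 and M4. The log2 difference over all libraries was -1.48. Among all genes, 0% were called under vehicle by limma (0 of 16509, with 984 at an unadjusted p under 0.05, 0 by edgeR and 14 by DESeq2).

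**Figure D1:**
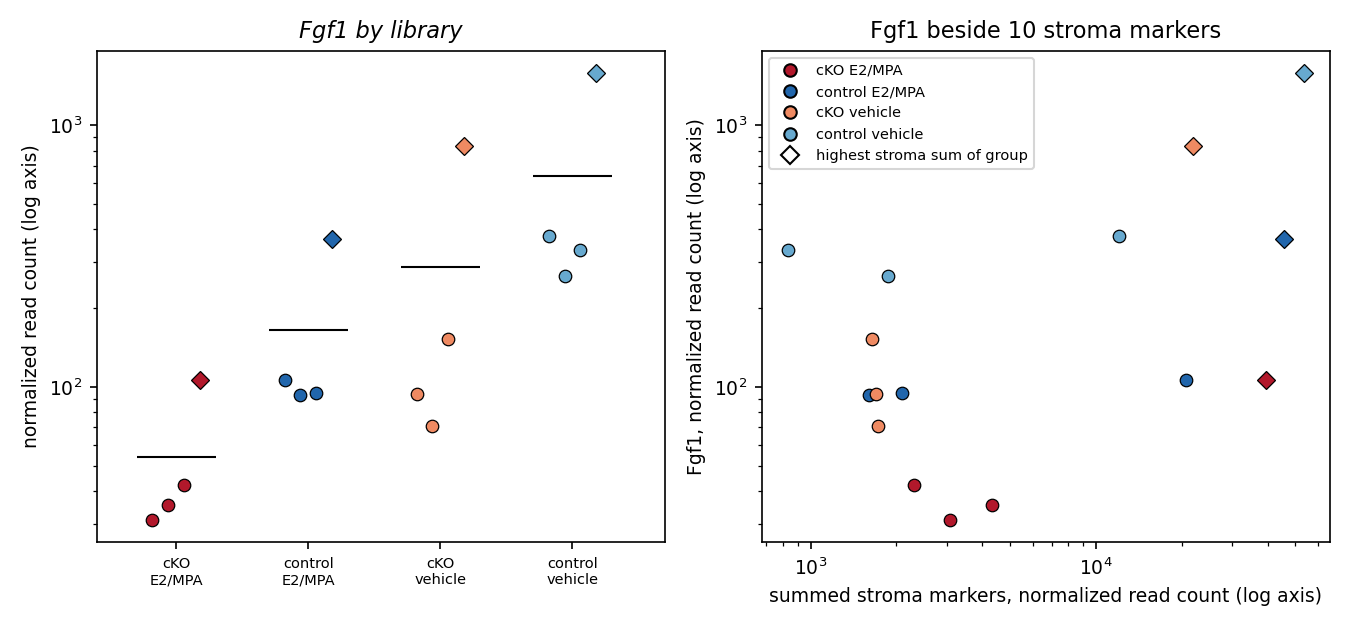
Left, Fgf1 normalized read count (log axis) in each library of the 4 groups, with a line at the group mean; right, the same values beside the summed level of 10 stroma markers (log axes). Diamonds mark the library with the highest stroma sum of each group, which is also its highest in Fgf1; among the circles, cKO lies below control under either treatment.

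Under E2/MPA, in libraries that the choice did not use, Fgf1 was at 30.9, 35.2, 42.2 and 106 in the cKO libraries M13 to M16, against 106, 93.0, 95.1 and 367 in the control libraries M9 to M12. All cKO libraries but M16 lay below every control library, and M16 lay at the level of M9. The mean was 53.7 ± 35.5 in cKO and 165 ± 135 in control, a log2 fold change of -1.51 (SE 0.75). This difference did not pass the test (adjusted p = 0.492, over all alternatives 0.0553 to 0.722). The lowest of these p-values was without the 4 stroma-rich libraries, where the cKO libraries (30.9 to 42.2) and the control libraries (93.0 to 106) did not overlap and the log2 fold change was -1.43. The stroma-rich pair M16 and M12 differed by a ratio of 0.29 and the other libraries by a ratio of means of 0.368. M9 had the second-highest stroma sum of its group (20703) and a Fgf1 level of 106, close to the 93.0 and 95.1 of M10 and M11, whose stroma sums were 1599 and 2094.

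The hormone difference of Fgf1 was of like size. E2/MPA means were 53.7 ± 35.5 in cKO, against 288 ± 366 under vehicle, and 165 ± 135 in control, against 640 ± 631 under vehicle, with log2 differences of -1.84 and -1.81. Without the stroma-rich libraries the ratio of E2/MPA to vehicle means was 0.341 in cKO and 0.302 in control, and no library of one treatment overlapped the other in either genotype. Among those libraries the order of levels was control vehicle (265 to 376), then cKO vehicle (70.6 to 152) and control E2/MPA (93.0 to 106), whose ranges overlapped, then cKO E2/MPA (30.9 to 42.2). The level in vehicle-treated cKO organoids was thus not separate from that in hormone-treated controls.

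The genes whose log2 level followed Fgf1 most closely over the 16 libraries, of 13489 compared, were Tnfrsf11b (Pearson's r = 0.975), which encodes the decoy receptor osteoprotegerin, the hyaluronan synthase gene Has2 (0.97), the follistatin gene Fst (0.964), Coro6 (0.962) and Frmpd1 (0.954). With each group's mean removed, the closest were Dhrs3 (0.969), Fst (0.964), Sh3bgrl (0.963), Rap1a (0.96) and Cmtm3 (0.957). These values describe likeness only, and every library enters each of them. Among the members, r over all libraries was positive for Spry2 (0.673, rank 1163 of 13489), Fgfr1 (0.553, rank 2249) and Spry4 (0.457, rank 3148). Fgfr2 (-0.806), Spry1 (-0.619) and Fgfbp1 (-0.617) ran opposite. With group means removed, Fgfr1 was the closest member (0.855, rank 405), then Spry2 (0.83, rank 687) and Spry4 (0.609, rank 2808). Fgfr2 still ran opposite (-0.856), and Spry1 (0.0723) and Fgfbp1 (-0.12) were near 0.

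Of the receptor genes, Fgfr2 (ENSMUSG00000030849), whose epithelial splice form binds stromal FGF7 and FGF10, was the most abundant. Per kilobase of merged exons (GENCODE M21 lengths, an approximation because the counted annotation is not given), Fgfr2 was at 70.7 to 332 across the 16 libraries, Fgfr4 at 16.9 to 62.1, Fgfr3 at 13.8 to 26.5 and Fgfr1 at 0.663 to 38.8. Fgfr2 made up 44.7% to 90.9% of the sum of the 4 receptor genes on this scale. Under E2/MPA its share was 66.1% to 84.4% in cKO and 70.7% to 90.9% in control, against 45.5% to 73.8% in cKO and 44.7% to 83.9% in control under vehicle. Counts cannot tell its splice forms apart, and in GENCODE M21 Fgfr2 shares 314 exon bases with Ctbp2, so reads there are uncertain.

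Fgfr2 was higher under E2/MPA in both genotypes. In cKO it was at 3236, 2305, 3134 and 1884 under E2/MPA (M13 to M16), against 1801, 1672, 1696 and 880 under vehicle (M5 to M8), and the groups did not overlap. In control it was at 2678, 3430, 3012 and 1947 under E2/MPA (M9 to M12), against 1125, 2377, 1907 and 730 under vehicle (M1 to M4), where M12 fell below M2. In each group the stroma-rich library had the lowest level. The log2 fold change was 0.82 in cKO (SE 0.33, adjusted p = 0.198) and 0.96 in control (SE 0.33, adjusted p = 0.0886), and neither passed the limma test over all 16 libraries. Both passed with the stroma marker mean as a covariate (adjusted p = 6.6e-04 in cKO and 3.1e-04 in control) and with libraries 8 numbers apart as a block (adjusted p = 0.0147 in cKO and 0.00395 in control), a pairing the labels do not state. The control difference also passed without M2 (adjusted p = 0.0296) and without the 4 stroma-rich libraries (adjusted p = 0.0335, log2 fold change 0.81). Over all alternatives the adjusted p ran from 6.6e-04 to 0.446 in cKO and from 3.1e-04 to 0.228 in control. Under E2/MPA Fgfr2 averaged 2640 ± 654 in cKO and 2767 ± 627 in control, and the log2 fold change of -0.07 was smaller than its SE of 0.33 (adjusted p = 0.97).

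Fgfr1 (ENSMUSG00000031565), which encodes the receptor typical of mesenchymal cells, followed the stroma-rich libraries. Under E2/MPA its level was 305 in M16, against 13.1 to 24.7 in M13 to M15, and 343 in M12, against 7.00 to 132 in M9 to M11. Under vehicle it was 214 in M8, against 10.1 to 31.6 in M5 to M7, and 383 in M4, against 6.55 to 90.0 in M1 to M3. The second-highest control values were in M9 (132) and M1 (90.0), which also had the second-highest stroma sums of their groups, and the lowest rested on 7 reads in M2 and M10 and 8 in M3. No comparison of Fgfr1 passed (adjusted p = 0.975 for hormone in cKO, 0.896 for hormone in control and 0.95 for genotype under E2/MPA), with a SE of 1.48 on the log2 scale.

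Fgfr3 (ENSMUSG00000054252), a receptor gene of several epithelia, was level across the design. It averaged 140 ± 26.7 in cKO and 137 ± 40.5 in control under E2/MPA, against 141 ± 27.7 in cKO and 129 ± 23.1 in control under vehicle. Its log2 fold changes were -0.00 for hormone in cKO (adjusted p = 0.996), 0.05 for hormone in control (adjusted p = 0.916) and 0.06 for genotype under E2/MPA (adjusted p = 0.958), each with a SE of 0.21. The stroma-rich library lay within the range of the others in each of the 4 groups.

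**Figure D2:**
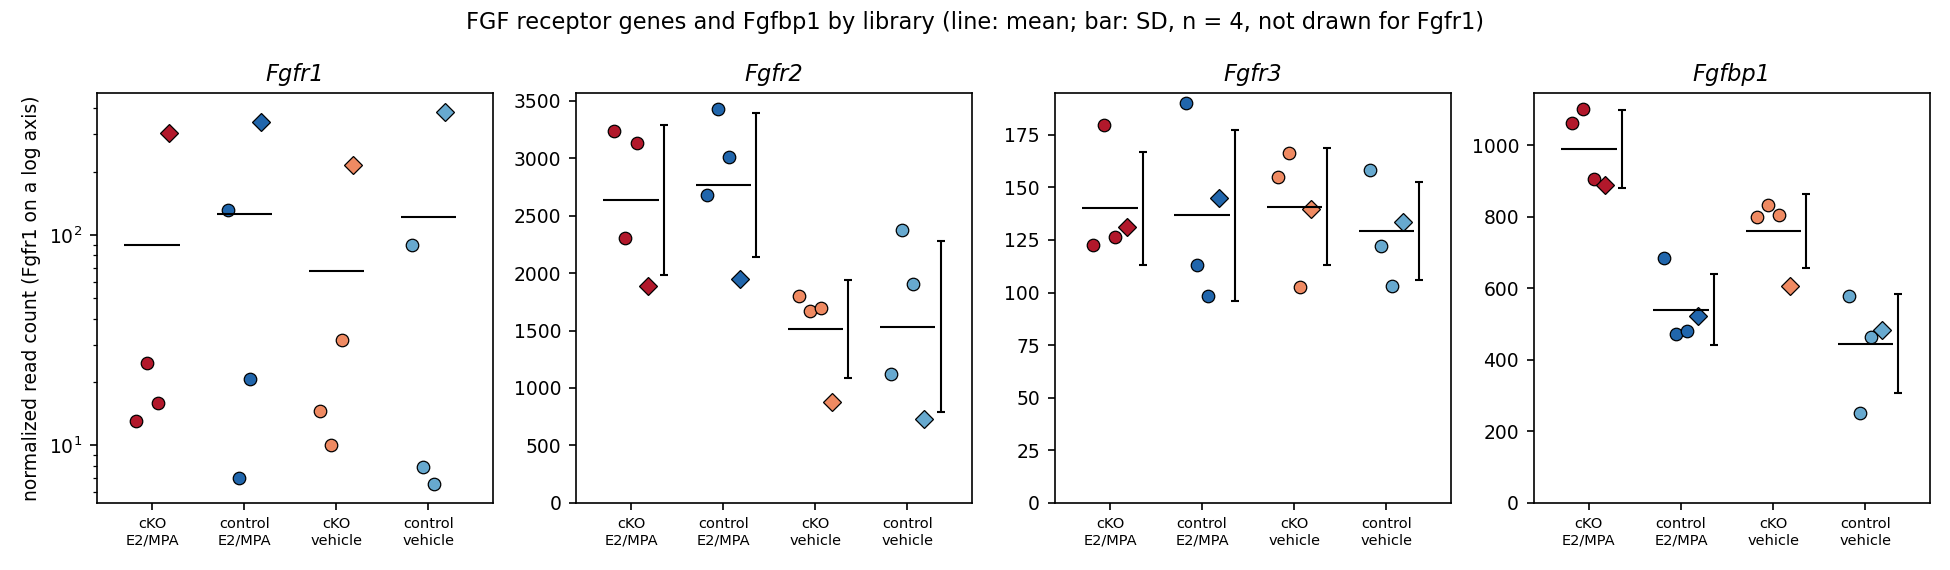
Normalized read counts of Fgfr1 (log axis), Fgfr2, Fgfr3 and Fgfbp1 in each library of the 4 groups, with lines at the means and SD bars (n = 4, not drawn for Fgfr1); diamonds mark stroma-rich libraries. Fgfr1 is highest and Fgfr2 lowest in each diamond, and the Fgfbp1 libraries of cKO lie above those of control under each treatment.

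Fgfbp1 (ENSMUSG00000048373) encodes a secreted protein that binds FGFs and releases them from heparan sulfate in the matrix. It was higher in cKO organoids in every library under either treatment. Under E2/MPA it was at 1064, 1103, 906 and 889 in cKO (M13 to M16), against 686, 473, 481 and 521 in control (M9 to M12), a mean of 990 ± 108 in cKO and 540 ± 99.1 in control. The groups did not overlap, and Fgfbp1 was the only 1 of the 8 members for which this held, against 6.17% of all tested genes (3.82% higher and 2.35% lower in cKO). The log2 fold change was 0.88 (SE 0.21) and did not pass over all genes (adjusted p = 0.18, over all alternatives 0.00879 to 0.513). DESeq2 on the recovered reads called it (adjusted p = 0.00879), as did the fit with the stroma marker mean as a covariate (adjusted p = 0.0409). Under vehicle, the contrast on which the set was chosen, it was at 800, 833, 804 and 606 in cKO (M5 to M8), against 580, 251, 465 and 484 in control (M1 to M4), with a log2 difference of 0.83 and no overlap, which held for 3.01% of all genes (1.64% higher and 1.37% lower in cKO). Without the stroma-rich libraries the ratio of cKO to control means was 1.87 under E2/MPA and 1.88 under vehicle. Its hormone response was smaller, with a log2 fold change of 0.38 in cKO (SE 0.21, adjusted p = 0.349), where E2/MPA and vehicle libraries did not overlap, and 0.33 in control (SE 0.21, adjusted p = 0.363), where they did.

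The Sprouty genes gave the calls of the set. In control organoids E2/MPA raised Spry1 and lowered Spry2 and Spry4, 3 of the 7 members tested, against 8.9% of all genes (5.39% higher and 3.51% lower). Sprouty proteins inhibit signalling from receptor tyrosine kinases to ERK.

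Spry1 (ENSMUSG00000037211) was at 378, 275, 336 and 306 in control under E2/MPA (M9 to M12), against 257, 178, 226 and 242 under vehicle (M1 to M4). All treated libraries lay above all vehicle libraries, a log2 rise of 0.52 (SE 0.13, adjusted p = 0.0184). In cKO it was at 400, 340, 364 and 373 under E2/MPA (M13 to M16), against 294, 314, 242 and 289 under vehicle (M5 to M8), again without overlap. The cKO log2 fold change of 0.38 (SE 0.13) did not pass (adjusted p = 0.111). The stroma-rich library lay within the range of the others in all 4 groups.

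Spry2 (ENSMUSG00000022114) moved the other way. In control it was at 504, 371, 378 and 570 under E2/MPA, against 907, 642, 622 and 988 under vehicle, without overlap. This was a log2 fold change of -0.79 (SE 0.20, adjusted p = 0.0256). In cKO it was at 545, 500, 495 and 713 under E2/MPA, against 802, 652, 680 and 1100 under vehicle, where only the stroma-rich M16 reached into the vehicle range. The cKO log2 fold change was -0.51 (SE 0.20, adjusted p = 0.193). The stroma-rich library was the highest of each group, and without these 4 libraries the ratio of E2/MPA to vehicle means was 0.722 in cKO and 0.577 in control.

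Spry4 (ENSMUSG00000024427) fell by 1.01 in control (SE 0.25, adjusted p = 0.0216), with 387, 232, 246 and 441 under E2/MPA, against 941, 428, 498 and 809 under vehicle. M12 lay just above M2, and the other treated libraries lay below every vehicle library. In cKO it was at 489, 428, 445 and 600 under E2/MPA, against 800, 628, 779 and 883 under vehicle, without overlap, with a log2 fold change of -0.66 (SE 0.25, adjusted p = 0.167). The ratio of Spry2 to Spry1 reads, not corrected for length, was 1.36 to 1.91 in cKO and 1.12 to 1.86 in control under E2/MPA, against 2.07 to 3.8 in cKO and 2.75 to 4.08 in control under vehicle. The treatments did not overlap on this ratio in either genotype.

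**Figure D3:**
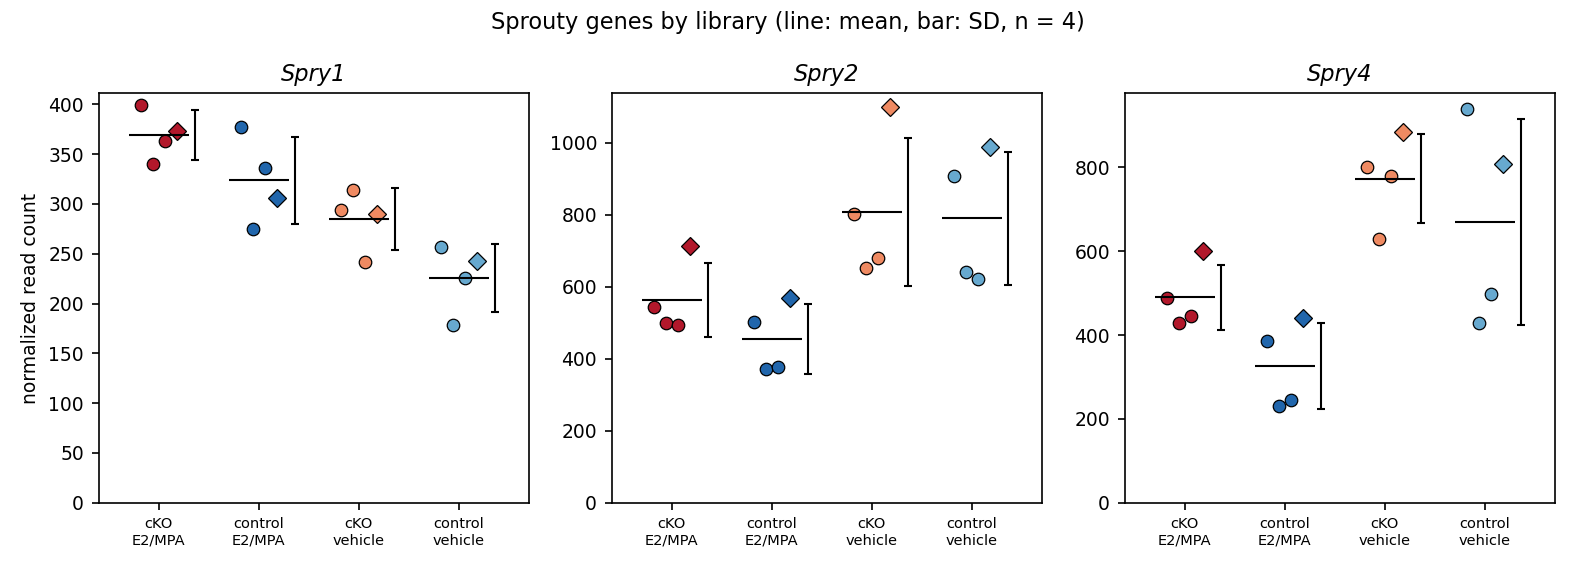
Normalized read counts of Spry1, Spry2 and Spry4 in each library of the 4 groups, with lines at the means and SD bars (n = 4); diamonds mark stroma-rich libraries. In control, Spry1 lies higher and Spry2 lower under E2/MPA than under vehicle in every library, and Spry4 lies lower in all but 1 treated library.

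The Sprouty calls in control were close to the threshold. With only the control libraries in the fit none passed (adjusted p = 0.103 for Spry1, 0.0802 for Spry2 and 0.124 for Spry4). Leaving out M9 or M11 ended the call of Spry1 (up to 0.0586), and leaving out M1, M4, M10 or M11 ended those of Spry2 (up to 0.0919) and Spry4 (up to 0.0803). Without all 4 stroma-rich libraries the 3 calls stood.

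In cKO organoids 0 of the 7 members tested passed limma, against 4.19% of all genes (2.71% higher and 1.48% lower), and 0 passed by edgeR and by DESeq2. At an unadjusted p under 0.05 were 4 (Fgfr2, Spry1, Spry2 and Spry4), beside 18.6% of all genes. Each of these 4 differed in the same direction as in control. The libraries of 4 members did not overlap between the treatments (Fgfr2, Fgfbp1, Spry1 and Spry4), against 13.8% of all genes (8.01% higher and 5.8% lower). In control those of 2 members did not overlap (Spry1 and Spry2), against 12.1% (6.66% higher and 5.49% lower). The stroma marker mean as a covariate gave 3 calls in cKO, and taking the groups compared alone gave 1, Spry4 (adjusted p = 0.0255). With libraries 8 numbers apart as a block, 4 passed (Fgfr2, Spry1, Spry2 and Spry4, the last at adjusted p = 0.00767). The labels do not state that these libraries belong together. The deviations of each of the 8 such pairs from their group means correlated at 0.386 to 0.746. The highest were M4 with M12 (0.746) and M8 with M16 (0.723), all stroma-rich, and other pairs of libraries were not compared. The count of 0 thus depends on the fit, and whether these libraries belong together was not tested.

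The difference of the hormone responses between genotypes was tested directly, and 0 of the 7 members passed by limma, edgeR or DESeq2, against 0% of all genes. At an unadjusted p under 0.05 in limma were 0 members, beside 1.87% of all genes (309 of 16509). The interaction was 0.28 for Spry2 (SE 0.29), 0.35 for Spry4 (SE 0.36), -0.14 for Spry1 (SE 0.18) and -0.14 for Fgfr2 (SE 0.47), each at adjusted p = 1.00. The interactions of Spry2 and Spry4 were smaller than their SE, so a difference between the genotypes in these responses was not detectable with these libraries.

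Between genotypes under E2/MPA, 0 of the 8 members passed limma, against 0.00606% of all genes (1 of 16509). At an unadjusted p under 0.05 were 2, Fgfbp1 and Spry4, beside 10.9% of all genes. By edgeR 0 passed and by DESeq2 1 (Fgfbp1), beside 1 and 185 of all genes. Spry4 averaged 490 ± 77.5 in cKO and 327 ± 103 in control, with a log2 fold change of 0.63 (SE 0.25, adjusted p = 0.376). Spry2 averaged 563 ± 102 in cKO and 455 ± 97.5 in control (0.31, SE 0.20, adjusted p = 0.614), and Spry1 369 ± 24.7 in cKO and 324 ± 43.8 in control (0.20, SE 0.13, adjusted p = 0.61). With the stroma marker mean as a covariate 3 members passed, beside 319 of all genes. They were Fgfbp1 (adjusted p = 0.0409), Spry2 (0.0407) and Spry4 (0.037). Over all alternatives their adjusted p ran up to 0.513, 0.882 and 0.738. Under vehicle the log2 differences, given without a test, were 0.27 for Spry4, 0.03 for Spry2 and 0.34 for Spry1, -0.24 for Fgfr1 (SE 1.48), 0.07 for Fgfr2 (SE 0.33) and 0.12 for Fgfr3 (SE 0.21). With 1 library left out they ran from -1.14 to 0.86 for Fgfr1, from -0.24 to 0.33 for Fgfr2 and from -0.13 to 0.15 for Spry2, so the sign of these 3 turned.

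**Figure D4:**
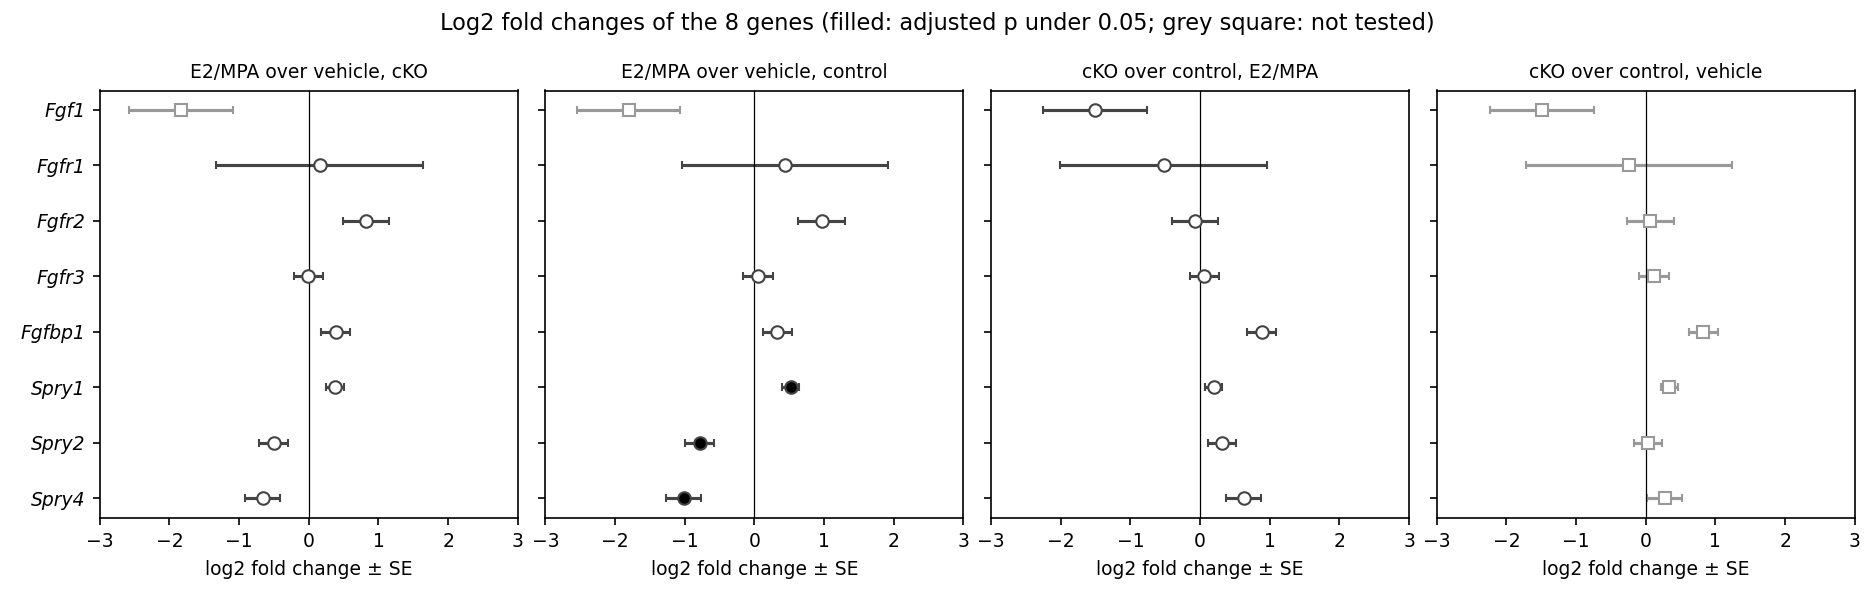
Log2 fold changes with SE of the 8 genes for E2/MPA over vehicle in cKO and in control, and for cKO over control under E2/MPA and under vehicle; filled points passed adjusted p 0.05 in limma and grey squares were not tested. The filled points are Spry1, Spry2 and Spry4 in control; Fgf1 lies left of 0 and Fgfbp1 right of 0 in each panel.

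The other genes of the pathway were taken from lists of ligands, receptors, carriers, relay proteins, feedback inhibitors and ERK-induced targets. For hormone, limma called 4.19% of all genes in cKO and 8.9% in control. An unadjusted p under 0.05 was found for 18.6% and 23.9% of all genes. Of 18 ligand genes 9 were in the table. Fgf16 fell in both genotypes, by 1.04 in cKO (SE 0.22, adjusted p = 0.0146; 17.3 ± 1.31 under E2/MPA, against 37.1 ± 8.75 under vehicle) and by 0.82 in control (SE 0.22, adjusted p = 0.0299; 27.3 ± 7.30 under E2/MPA, against 48.4 ± 9.28 under vehicle). Fgf9 fell by 0.79 in cKO (adjusted p = 0.0459, with 101 ± 16 under E2/MPA, against 176 ± 30.6 under vehicle) and had a log2 fold change of -0.68 in control (adjusted p = 0.0542). With Fgf1 left aside, 2 of 7 tested ligand genes fell in cKO and 1 of 7 in control, and 0 rose, beside 4.19% and 8.9% of all genes called in either direction. With 1 library left out the counts ran from 1 to 2 in cKO and from 0 to 2 in control, where leaving out M1, M3, M4, M9, M10 or M11 gave 0. Fgf18 had log2 fold changes of 0.22 in cKO and 0.08 in control (adjusted p = 0.774 and 0.916).

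Of 9 tested receptor and co-receptor genes 0 passed in either genotype in limma, beside 4.19% of all genes in cKO and 8.9% in control. At an unadjusted p under 0.05 were 2 in cKO and 3 in control, beside 18.6% and 23.9% of all genes. By edgeR 0 passed in cKO and 1 in control (678 and 1497 of all 16509 genes), and by DESeq2 0 and 2 (1255 and 2175). Fgfr4 had log2 fold changes of -0.48 in cKO and -0.55 in control (adjusted p = 0.434 and 0.286), and those of Fgfrl1, which encodes a receptor without a kinase domain, were 0.18 in cKO and -0.01 in control (adjusted p = 0.291 and 0.951). Of 13 carriers and heparan sulfate core proteins 0 passed, beside the same shares of all genes (3 at an unadjusted p under 0.05 in cKO and 2 in control, 0 by edgeR in either, and 0 in cKO and 1 in control by DESeq2). The log2 fold changes of the perlecan gene Hspg2 were -0.28 in cKO and -0.36 in control (adjusted p = 0.339 and 0.16), and those of the agrin gene Agrn were -0.21 in cKO and -0.28 in control (adjusted p = 0.483 and 0.25).

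Of 20 relay genes, Grb2, the adaptor that links receptors to RAS, rose in control (2558 ± 300 under E2/MPA, against 1829 ± 246 under vehicle, log2 fold change 0.49, SE 0.11, adjusted p = 0.0106). This 1 call of 20 is no larger a share than the 8.9% of all genes called there (5.39% higher), and edgeR called 1 and DESeq2 4. In cKO none passed (0 of 20, with 5 at an unadjusted p under 0.05, 0 by edgeR and 1 by DESeq2). The gene Map2k1 for MEK1, the kinase that activates ERK, had log2 fold changes of -0.12 in cKO and -0.44 in control (adjusted p = 0.702 and 0.0556), and the adaptor gene Shc1 0.27 in cKO and 0.23 in control (adjusted p = 0.0782 and 0.0928).

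Of 13 tested feedback inhibitors, a list that holds the Sprouty members, 1 rose and 3 fell in control, the Sprouty genes above and Dusp4, a phosphatase gene that acts on ERK, which fell by 0.59 (735 ± 148 under E2/MPA, against 1115 ± 296 under vehicle, adjusted p = 0.0419). Of all genes 8.9% were called (5.39% higher and 3.51% lower). The list's count was 5 by edgeR and by DESeq2, and 0 with only the control libraries in the fit. With 1 library left out it ran from 0 to 5, with 0 without M11 and 1 without M1, M4 or M10. In cKO 0 passed limma, with 4 at an unadjusted p under 0.05 and 0 by edgeR or DESeq2. The median log2 fold change was -0.08 in cKO and -0.27 in control, beside -0.00 over all tested genes in each. Dusp6, the ERK phosphatase gene, a common readout of the pathway, had log2 fold changes of -0.08 in cKO and -0.31 in control (adjusted p = 0.871 and 0.348). Those of Errfi1 were -0.10 in cKO and -0.15 in control (adjusted p = 0.837 and 0.677).

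Of 10 ERK-induced targets 2 fell in control, the cyclin D1 gene Ccnd1 (6873 ± 492 under E2/MPA, against 8744 ± 541 under vehicle, by 0.35, adjusted p = 0.0211) and Phlda1 (2368 ± 666 under E2/MPA, against 3844 ± 908 under vehicle, by 0.71, adjusted p = 0.0494). Of all genes 3.51% were called lower. edgeR called 1 of the list and DESeq2 4, the fit of the control libraries alone 0, and leaving out 1 library gave 0 to 3, with 0 without M1, M9, M10 or M11. In cKO 0 passed, with 3 at an unadjusted p under 0.05, 0 by edgeR and 1 by DESeq2. Without the stroma-rich libraries 3 passed, beside 959 of all genes. Ccnd1 had a log2 fold change of -0.30 in cKO (adjusted p = 0.062), and Ier3 one of 0.01 (adjusted p = 0.976). The median log2 fold change was -0.27 in cKO and -0.35 in control.

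Between genotypes under E2/MPA, 12 of 13 feedback inhibitors and 9 of 10 ERK-induced targets had a higher mean log2 level in cKO than in control, beside 7940 of all 16509 genes. The list medians were 0.31 and 0.31, beside -0.01 over all tested genes. With quantile normalization 12 of 13 and 8 of 10 were higher in cKO, beside 8897 of all genes. The genes of a list share the same libraries, so these counts are not independent agreements. None of either list passed edgeR or limma in the fit reported, and DESeq2 called 0 and 1. At an unadjusted p under 0.05 were 5 and 4, beside 10.9% of all genes. With the stroma marker mean as a covariate limma called 4 and 2, beside 319 of all genes.

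**Figure D5:**
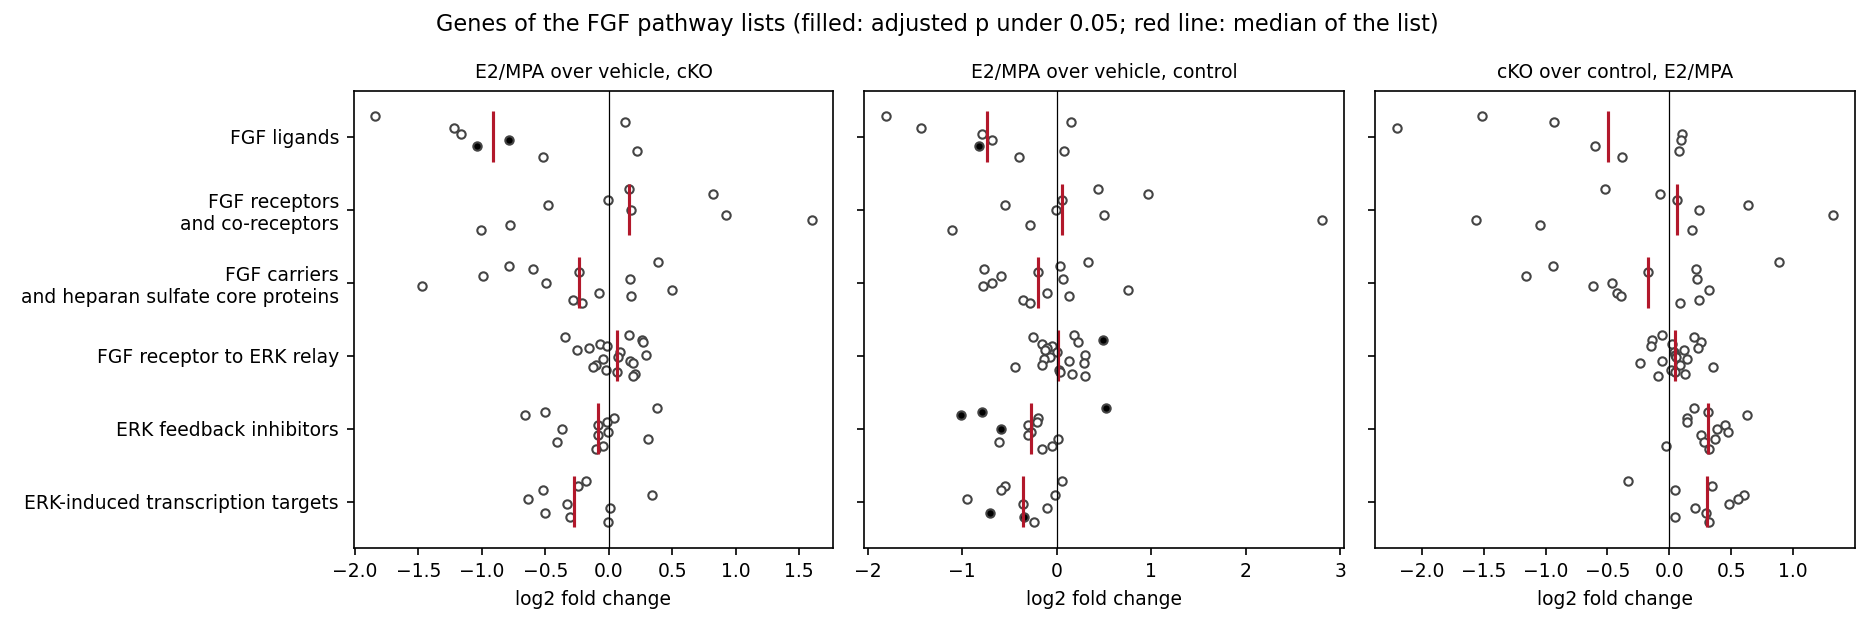
Log2 fold changes of the genes of 6 FGF pathway lists that passed the filter, for E2/MPA over vehicle in cKO and in control and for cKO over control under E2/MPA. Filled points passed adjusted p 0.05 in limma and red lines are list medians. Fgf1, not tested for hormone, is drawn open in the hormone panels and enters the ligand medians there. In control the filled points of the feedback list are 1 higher and 3 lower; in the genotype panel the feedback and target lists have medians of 0.31.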

How the data were processed

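Per the submitters' processing notes, HISAT2, featureCounts and DESeq2 were used with the mouse build GRCm39. Versions and strand setting: not given in the sources used here. A deposited table holds a signal per gene, the read count of the library over its size factor. Each value divided by the smallest nonzero value of its library gave whole reads within 0.01 read (100% of values). Recovered depth was 14372111 to 20016836 reads per library, which sets the counting error of low genes such as Fgfr1.

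Symbols came from GENCODE M21, matched on Ensembl identifiers for 22484 of 23306 genes, with 1.83% of reads in the others. Groups follow the titles in the labels. The filter of 10 in 4 libraries left 16509 genes for the tests. limma 3.58.1 under R 4.3.3, with 1 coefficient for each group and a trended prior variance, was fitted on log2(value + 1) over all 16 libraries, and tested on simulated data. Alternatives were edgeR (4.0.16) and DESeq2 (1.42.0) on recovered reads, other pseudocounts, filters, scalings and library choices. Per list, up to 4 genes past 0.05 with the lowest adjusted p are named, or the 2 of highest mean if at most 1 passed. The members and lists were chosen with earlier results of these data known. No sequence is printed for the members other than Spry1, Spry2 and Fgfbp1.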

Additional observations from a re-analysis of the deposited data

Results flagged for a closer look

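Values far from the other libraries of their group were looked for in 32 sets of 4 libraries (8 genes in 4 groups) with Dixon's gap test, and 9 stood apart, where chance gives about 1 in 20. Fgf1 did so in every group, always in the stroma-rich library and always high: M16 (106.4), M12 (367.3), M8 (834.9) and M4 (1584). Fgfr1 was high in M16 (305.4) and M8 (214.2). In M8 Fgfr2 (880.1) and Fgfbp1 (605.7) were low. Fgfr3 was high in M14 (179.6), which was not stroma-rich. The part of stromal cells in these values was not tested.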

How the results depend on the processing

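The count of members called for hormone in control was 3 in the fit reported and 0 with only the groups compared, and ran from 0 to 4 with 1 library left out. For hormone in cKO the count of 0 became 1 with only the groups compared, 3 with the stroma marker mean as a covariate and 4 in the replicate block of libraries 8 numbers apart, and stayed at 0 with 1 library left out. For genotype under E2/MPA the count of 0 became 1 with DESeq2 and 3 with the stroma covariate (Fgfbp1, Spry2 and Spry4), and for the interaction it was 0 in every setting. The log2 difference of Fgf1 under vehicle ran from -2.24 to -0.91 with 1 library left out and from -1.67 to -1.15 in the other settings. No named member reversed a called direction. The labels do not state that libraries 8 numbers apart belong together. Their deviations from group means correlated at 0.386 to 0.746, a range not set beside that of other pairs of libraries. With the block the lists of ligands, receptors, carriers, relay genes, feedback inhibitors and targets had 2, 3, 2, 4, 4 and 4 calls in cKO and 3, 4, 4, 7, 7 and 6 in control. Of all genes 3098 and 4479 were then called. With the stroma covariate these lists had 3, 3, 4, 3, 4 and 4 hormone calls in cKO and 2, 3, 4, 5, 5 and 5 in control, beside 2702 and 3593 of all genes.

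Over all genes, hormone in control called 1469 genes, against 484 with only the groups compared, 2210 without the stroma-rich libraries, 3593 with the stroma covariate, 4479 in the block and 759 to 2230 with 1 library left out. Hormone in cKO called 692, against 1255 with DESeq2, 2702 with the covariate, 3098 in the block and 362 to 827. Genotype under E2/MPA called 1, against 0 with a mean of at least 50 or only the groups compared, 2 with a pseudocount of 8, 9 without the stroma-rich libraries, 185 with DESeq2, 319 with the covariate and 0 to 10. Genotype under vehicle called 0, against 1 in the block, 2 with a mean of at least 50, 7 with the covariate, 14 without the stroma-rich libraries or with DESeq2, and 0 to 2. The share of hormone calls that were higher moved from 60.6% to 48.5% in control with quantile normalization and from 64.6% to 53.8% in cKO with upper-quartile rescaling. The causes were not tested.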
